A study of Homo sapiens with 15 samples.

Results

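The 10 genes described here are parts of the insulin and insulin-like growth factor (IGF) axis and its neighbours: the receptors INSR, IGF1R and IGF2R, the receptor substrates IRS1 and IRS2, the adaptor GRB10, the RNA-binding proteins IGF2BP1, IGF2BP2 and IGF2BP3, and the growth factor FGF2. They were taken by name from the 47634 genes counted in the series, and they were chosen by the lower counts of GRB10, IGF2BP2 and FGF2 in the cisplatin-only than in the untreated libraries. For those 3 genes every comparison with the untreated or cisplatin-only group is therefore a description with no test. For the other genes every comparison with untreated cells is a description too. The cells were IGROV-CP20, a human ovarian cancer line made resistant to cisplatin, a platinum drug that crosslinks DNA. Each of 5 groups held 3 libraries, labelled as biological replicates: untreated cells, a group exposed to cisplatin (50 µM, 24 h), and groups exposed in turn to a drug (telmisartan, tranilast or amphotericin B at 10 µM, 24 h) and to cisplatin (24 h). No library had a drug without cisplatin, so the effect of each drug by itself was not measured, and all groups were of the same resistant line. Telmisartan is an angiotensin receptor blocker, tranilast an anti-allergic drug and amphotericin B an antifungal that binds sterols.

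Insulin and the IGFs bind the receptor tyrosine kinases INSR and IGF1R, which phosphorylate IRS1 and IRS2 and so pass the signal to PI3K, AKT and mTOR. GRB10 binds the active receptors, restrains them and is itself an mTORC1 substrate, while IGF2R carries IGF2 to the lysosome and does not signal as a kinase. The IGF2BPs are oncofetal proteins that bind mRNAs, among them IGF2 mRNA and transcripts that carry N6-methyladenosine (m6A), and stabilise them or direct their translation. FGF2 acts through a separate family of receptor tyrosine kinases that feeds the same kinase cascades.

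The libraries were 3′ tag libraries, in which a transcript gives reads near its poly(A) end, and they held 1510620 to 3517041 counts each, with the amphotericin B libraries the shallowest (1510620 to 1872639). A level is given below as normalized CPM, the count scaled to a common library size and corrected for library composition, and levels are compared only within a gene. At the shallowest library 3 counts were 0.000199% of the total, and such limits cover counting error only. Cisplatin replicate 1 and telmisartan replicate 3 stood apart from the others of their groups, with a chi-square per degree of freedom of 26.4 to 44.1 against them, compared with 2.24 to 8.07 for all other pairs. Of the epithelial and ovarian carcinoma markers 5 of 10 reached 10 counts in a library, among them KRT18 and EPCAM, whereas KRT7 and PAX8 were at 0 in 14 of 15 libraries. Of 6 leukocyte markers only PTPRC reached 10 counts, and the summed level of that list was 65.6 to 79.2 CPM in untreated libraries and 5.16 to 23.0 CPM in all others, so it moved with the same contrast as the genes below. CD3E was at 0 in every library, the endothelial markers in the files reached at most 1 count, and the fibroblast list, with 3 of 6 genes at 10 counts, summed to 18.8 to 22.4 CPM in untreated and 20.1 to 52.5 CPM in treated libraries. The part of these markers in the results was not tested. In RNA from whole cultures, fewer cells that carry a transcript and less of it per cell cannot be told apart.

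The promoter sequences of the 3 genes by which the set was chosen are shown beside that of IGF2BP3, which had another composition. That these 3 were all lower with cisplatin was fixed by the choice, and nothing about their control is drawn from the letters. RefSeq (GRCh38.p14) gave a start for 9 of the 10 genes, and IGF2BP1 had no entry. The 250 bases before the start farthest upstream are printed 5′ to 3′ on the strand of the gene. Capitals mark GGGCGG or its reverse complement CCGCCC, the GC box, searched on both strands with overlapping matches counted separately. The windows lie on the minus strand at chr7:50793454-50793703 (GRB10), chr3:185825043-185825292 (IGF2BP2) and chr7:23470492-23470741 (IGF2BP3), and on the plus strand at chr4:122826581-122826830 (FGF2).
GRB10: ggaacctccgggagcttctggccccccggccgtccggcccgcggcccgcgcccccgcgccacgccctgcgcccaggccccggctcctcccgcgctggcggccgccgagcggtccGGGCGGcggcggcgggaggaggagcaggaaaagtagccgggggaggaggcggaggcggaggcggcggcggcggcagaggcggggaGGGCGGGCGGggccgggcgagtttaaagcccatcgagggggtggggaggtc
IGF2BP2: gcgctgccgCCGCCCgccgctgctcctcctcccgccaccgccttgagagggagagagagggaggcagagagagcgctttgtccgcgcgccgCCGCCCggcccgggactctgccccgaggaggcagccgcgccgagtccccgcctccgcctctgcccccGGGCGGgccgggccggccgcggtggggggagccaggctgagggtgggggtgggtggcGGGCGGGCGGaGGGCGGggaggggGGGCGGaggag
IGF2BP3: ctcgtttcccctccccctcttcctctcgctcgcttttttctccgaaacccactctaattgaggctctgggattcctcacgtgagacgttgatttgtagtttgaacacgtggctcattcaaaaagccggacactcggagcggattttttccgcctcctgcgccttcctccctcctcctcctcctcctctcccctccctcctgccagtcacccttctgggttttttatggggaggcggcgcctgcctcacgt
FGF2: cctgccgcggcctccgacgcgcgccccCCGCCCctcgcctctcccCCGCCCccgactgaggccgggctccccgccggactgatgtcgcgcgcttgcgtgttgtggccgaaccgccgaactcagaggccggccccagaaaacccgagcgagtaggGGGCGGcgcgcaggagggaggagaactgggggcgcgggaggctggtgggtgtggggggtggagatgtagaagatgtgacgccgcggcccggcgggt
GRB10 held 3 matches, IGF2BP2 held 7, FGF2 held 3 and IGF2BP3 held 0, at 81.6%, 81.6%, 75.2% and 56.8% G or C. Of all 35116 RefSeq windows of this length 42.6% held a match and 13.9% held 3 or more, and the median was 58% G or C. IGF1R held 2 matches, INSR and IRS1 held 4 each, IRS2 held 5 and IGF2R held 6. GRB10 has 5 starts in this table, of which the 3 farthest downstream held 0 matches, and IGF2BP2 has 2, of which the downstream one held 0. A 3′ library does not tell which start was used, and 0 matches says only that these letters are not in the window.

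**Figure D1:**
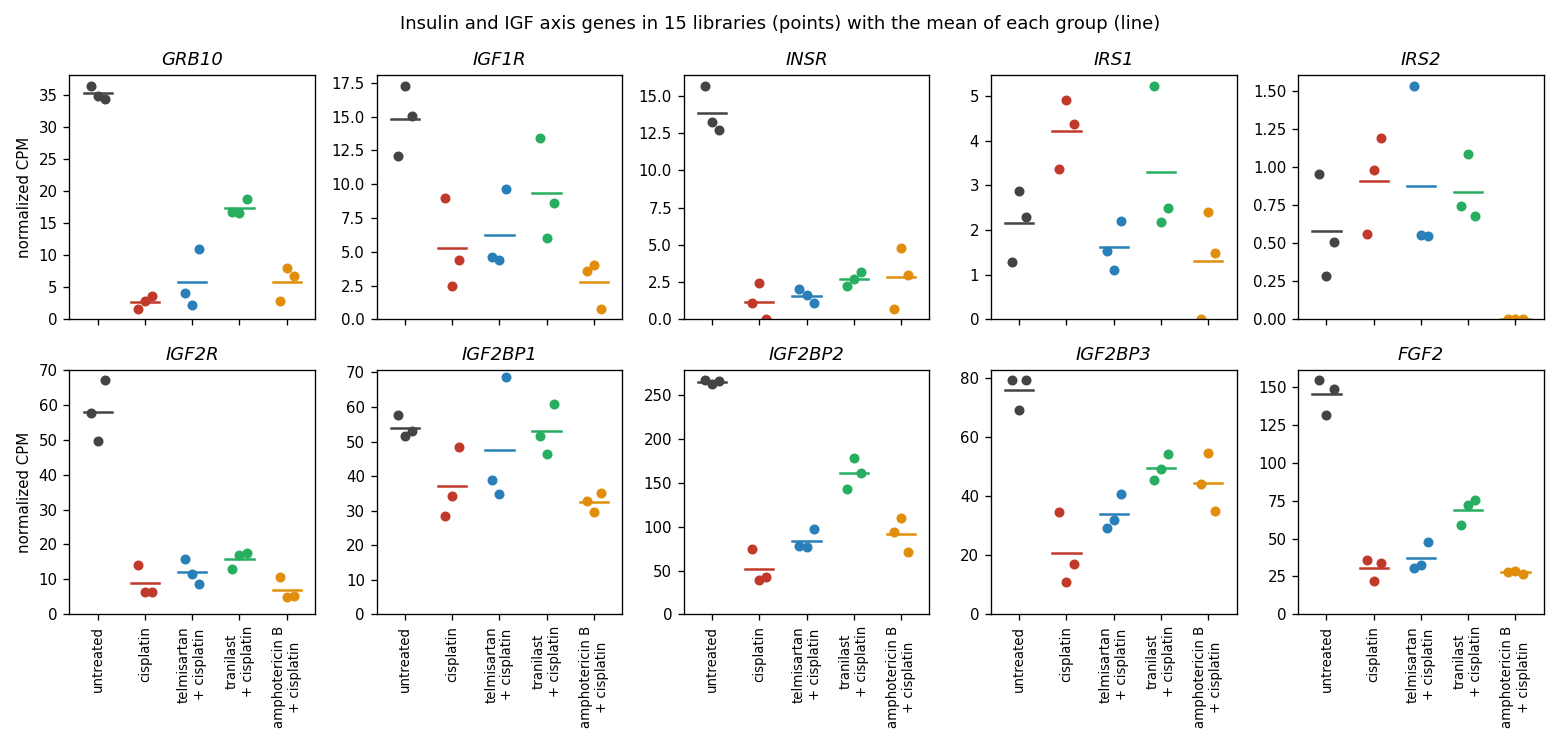
Normalized CPM (linear axes from 0, a scale for each gene) of the 10 genes in the 15 libraries, with the mean of each group as a line. GRB10, IGF2BP2 and FGF2 are highest in untreated cells and next highest after tranilast and cisplatin, with no overlap between these groups, whereas IRS1 and IRS2 stay at or below 5.21 CPM throughout.

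GRB10 (ENSG00000106070, chromosome 7) was alike in the untreated libraries, at under 10 counts in each library after cisplatin alone and at an intermediate level after tranilast and cisplatin. Its level was 36.3, 34.8 and 34.4 CPM in the untreated libraries and 1.68, 2.94 and 3.58 CPM with cisplatin, from 3, 6 and 9 counts. With cisplatin it was 4.08, 2.21 and 11.01 CPM after telmisartan, 16.7, 16.6 and 18.7 CPM after tranilast and 2.84, 8.02 and 6.71 CPM after amphotericin B. All tranilast libraries lay above all of the other cisplatin-treated libraries and below all untreated ones, and the high telmisartan value came from the library that stood apart. Against untreated cells the log2 fold change was -3.62 ± 0.43 (SE) with cisplatin alone and -1.01 ± 0.32 with tranilast and cisplatin. These are descriptions, since GRB10 was selected on this contrast, and that GRB10 was high after tranilast was known when the genes were chosen.

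Of the signalling receptors, INSR (ENSG00000171105, chromosome 19) was at 15.6, 13.2 and 12.7 CPM in untreated cells and at 0 to 4.81 CPM in every treated library. The cisplatin libraries held 2, 5 and 0 INSR counts, the telmisartan libraries 4, 3 and 4, the tranilast libraries 6, 10 and 14 and the amphotericin B libraries 1, 6 and 4. INSR was thus low after every treatment, with no group of treated libraries near the untreated level, and the log2 fold change against untreated cells ran from -3.57 ± 0.57 (cisplatin) to -2.30 ± 0.53 (amphotericin B). IGF1R (ENSG00000140443, chromosome 15) was at 12.1, 17.3 and 15.02 CPM untreated, 8.96, 2.45 and 4.37 with cisplatin, 4.59, 4.42 and 9.63 after telmisartan, 13.4, 5.997 and 8.58 after tranilast and 3.56, 4.01 and 0.745 after amphotericin B. The highest cisplatin and telmisartan values of IGF1R were again those of the libraries that stood apart, and the tranilast range was the only treated one to overlap the untreated range. IGF2R (ENSG00000197081, chromosome 6), the clearance receptor, was at 57.7, 49.5 and 66.9 CPM untreated and at 4.81 to 17.6 CPM in all treated libraries, with a log2 fold change against untreated cells of -2.73 ± 0.32 for cisplatin alone and -1.86 ± 0.29 for tranilast with cisplatin.

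The receptor substrates were barely detected. IRS1 (ENSG00000169047, chromosome 2) had 0 to 14 counts a library, with 3.36, 4.91 and 4.37 CPM after cisplatin alone, above the 1.27, 2.88 and 2.29 CPM of untreated cells, so that it was the only gene tested of the set with a positive log2 fold change in that contrast (0.95 ± 0.53). IRS2 (ENSG00000185950, chromosome 13) had 0 to 4 counts a library and 0 in each of the 3 amphotericin B libraries, which allows up to 3 counts in each, so a difference was not detectable at this depth. IRS2 did not pass the filter on low counts and has no fold change or test, which leaves 9 of the 10 genes with values in the fit. IRS1 passed at a low level, and its fold changes rest on few counts. INSR passed through the untreated libraries, and its fold changes between treated groups also rest on few counts.

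Among the IGF2BPs, IGF2BP2 and IGF2BP3 were low after cisplatin and IGF2BP1 was less so. IGF2BP2 (ENSG00000073792, chromosome 3) was at 268, 264 and 266 CPM in untreated cells and at 74.5, 39.2 and 42.5 CPM with cisplatin. It was at 78.1, 76.8 and 97.2 CPM after telmisartan, 143, 178 and 162 CPM after tranilast and 94.6, 109.9 and 71.6 CPM after amphotericin B. As for GRB10, the tranilast libraries stood between the untreated libraries and all others without overlap, at a log2 fold change against untreated cells of -0.72 ± 0.21 compared with -2.36 ± 0.23 for cisplatin alone. IGF2BP3 (ENSG00000136231, chromosome 7) was at 79.4, 69.3 and 79.4 CPM untreated, 34.7, 10.8 and 17.1 with cisplatin, 29.1, 32.0 and 40.7 after telmisartan, 45.4, 49.3 and 54.4 after tranilast and 44.1, 54.5 and 35.03 after amphotericin B. For IGF2BP3 the tranilast and amphotericin B ranges overlapped and the highest cisplatin value was that of replicate 1. IGF2BP1 (ENSG00000159217, chromosome 17) was at 57.7, 51.5 and 53.0 CPM untreated, 28.6, 34.3 and 48.5 with cisplatin, 38.8, 34.8 and 68.8 after telmisartan, 51.7, 46.3 and 60.9 after tranilast and 32.7, 29.7 and 35.03 after amphotericin B. Its tranilast range overlapped the untreated range, with a log2 fold change of -0.03 ± 0.24 between them.

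FGF2 (ENSG00000138685, chromosome 4) was at 155, 132 and 149 CPM in untreated cells and at 35.8, 22.1 and 34.2 CPM with cisplatin. It was at 30.6, 32.6 and 47.9 CPM after telmisartan, 58.8, 72.0 and 75.6 CPM after tranilast and 27.7, 28.9 and 26.8 CPM after amphotericin B. Of the groups given a drug and cisplatin, only tranilast had all 3 libraries above the cisplatin range, and all of them lay below the untreated range. Telmisartan replicate 3, which stood apart, was the only other library given a drug that lay above the cisplatin range. The log2 fold change against untreated cells was -2.24 ± 0.22 for cisplatin, -1.95 ± 0.21 with telmisartan, -1.07 ± 0.20 with tranilast and -2.38 ± 0.23 with amphotericin B.

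Some of these genes share genomic sequence with others on the opposite strand in GENCODE 29, and the strand setting of the counting is not given in the sources used here, so reads from such partners cannot be told apart without it. NUDT6, antisense to the 3′ part of FGF2, had 211 counts over all libraries, at 6.99 ± 1.11 CPM (SD) untreated and 4.58 ± 0.58 CPM with cisplatin. MALSU1, which overlaps IGF2BP3 by 1521 bases, had 1614 counts and differed in the opposite direction to IGF2BP3, at 24.9 ± 2.19 CPM untreated and 67.8 ± 26.6 CPM with cisplatin. AC091133.2, an antisense gene that overlaps IGF2BP1 by 81 bases, had 152 counts.

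In the order of group means, the untreated group came first for 8 of the 10 genes, all but IRS1 and IRS2. Tranilast with cisplatin came next for 7 of those 8, and amphotericin B with cisplatin for INSR, whose means after amphotericin B and tranilast were 2.83 ± 2.05 and 2.71 ± 0.46 CPM (SD, 3 libraries each). Of those 7, untreated and tranilast ranges did not overlap for GRB10, IGF2R, IGF2BP2, IGF2BP3 and FGF2, and overlapped for IGF1R and IGF2BP1. Tranilast ranges lay above the next group without overlap for GRB10, INSR, IGF2BP2 and FGF2, with amphotericin B next for GRB10 and IGF2BP2 and telmisartan for INSR and FGF2. Between telmisartan, amphotericin B and cisplatin alone, neighbours in the order of means overlapped except for IGF2BP2, whose telmisartan range lay above the cisplatin range. Not all groups further apart in the order overlapped, and for IGF1R and FGF2, for example, the telmisartan range lay above that of amphotericin B. For GRB10, IGF2BP2 and FGF2 a higher level in untreated than in cisplatin-only libraries was fixed by the choice. How many of all genes had such an order or such ranges was not counted, so these counts describe the set only.

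The direct comparisons between drugs set no untreated or cisplatin-only library against a drug. Those libraries were still in the same fit of all 15, and so took part in its filter, scaling factors and estimate of the spread. All 9 genes in the fit were tested with the quasi-likelihood test of edgeR, with p adjusted over 11113 genes and a threshold of 0.05. Since the high level of GRB10 after tranilast was known beforehand, its p-values against the other drugs are no independent support. Between tranilast and amphotericin B, both with cisplatin, 6 of 9 genes were higher after tranilast and 0 were lower. GRB10 is among those 6, so the count is not fully independent of the choice of genes. Over all genes tested 19.7% were higher and 16.4% lower, so calls were common in this comparison. FGF2 was higher by 1.31 ± 0.22 on the log2 scale (adjusted p = 0.00106), GRB10 by 1.58 ± 0.43 (adjusted p = 0.00944) and IGF2BP2 by 0.81 ± 0.22 (adjusted p = 0.0102). The clearance receptor IGF2R was higher by 1.19 ± 0.37 (adjusted p = 0.0203), IGF1R by 1.71 ± 0.57 (adjusted p = 0.0264) and IGF2BP1 by 0.71 ± 0.26 (adjusted p = 0.0397). All 3 tranilast libraries lay above all 3 amphotericin B libraries for each of these 6 genes. The share of all genes separated in this way was not counted, so this adds no support to the calls. After amphotericin B a library held 1 to 5 counts of IGF1R, 4 to 10 of GRB10 and 6 to 15 of IGF2R, so these fold changes rest on few counts. IRS1 (1.30 ± 0.71, adjusted p = 0.16), IGF2BP3 (0.16 ± 0.28, adjusted p = 0.677) and INSR (-0.01 ± 0.64, adjusted p = 0.991) did not pass the test. INSR passed the filter on low counts through the untreated libraries (46 to 50 counts). With 6 to 14 counts after tranilast and 1 to 6 after amphotericin B, its test cannot show that a difference is absent. The median log2 fold change was 1.19 over the 9 genes and 0.15 over all genes, and scaling by library size alone put the latter at 0.81, with 87.4% of all calls higher after tranilast compared with 54.6%. RLE factors put the median over all genes at 0.03, with 44% of all calls higher. With those factors 5 of the 9 genes passed, all higher after tranilast. Only FGF2 kept its call in each of the 24 alternative analyses. The count of 6 fell to 2 without amphotericin B replicate 3 and to 3 without amphotericin B replicate 1, and it was 4 without amphotericin B replicate 2, tranilast replicate 1 or tranilast replicate 3. Over all genes 2700 to 3493 were called in these fits, compared with 4003 of 11113 with all libraries.

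Between tranilast and telmisartan, both with cisplatin, IGF2BP2 was higher after tranilast by 0.93 ± 0.22 and FGF2 by 0.88 ± 0.21 (adjusted p = 0.0438 for both, edgeR). These were 2 of 9 genes, where 0.585% of all genes were higher and 1.75% lower. All 9 log2 fold changes were positive, as were those of most protein-coding genes of such length. Below 0 were 25.5% of those spanning over 100 kb and 31% of those spanning 30 to 100 kb. GRB10 had the widest gap, 1.43 ± 0.38, with no overlap of its libraries, and an adjusted p of 0.0509. These calls turned on single libraries. The count was 0 without any library of the untreated, tranilast or amphotericin B groups or without telmisartan replicate 1 or 2. Over all genes only 0 to 3 were called in each of those fits, so nearly all calls of the comparison were lost, not only these. Without telmisartan replicate 3, which stood apart, the count of the set was 3, and GRB10 was then 2.44 higher (adjusted p = 0.000346, edgeR). In that fit 2760 of 11328 genes were called over all genes, compared with 260 of 11113 with all libraries, so calls were then common. Between telmisartan and amphotericin B 0 of 9 genes passed in edgeR, where the share of all genes called was 0% higher and 0% lower. IGF2BP1 was the only gene of the 9 at an unadjusted p under 0.05, with 0.57 ± 0.26, and 2283 of all genes were at that level. DESeq2 called 0 of the 9, and 184 of 11113 over all genes.

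**Figure D2:**
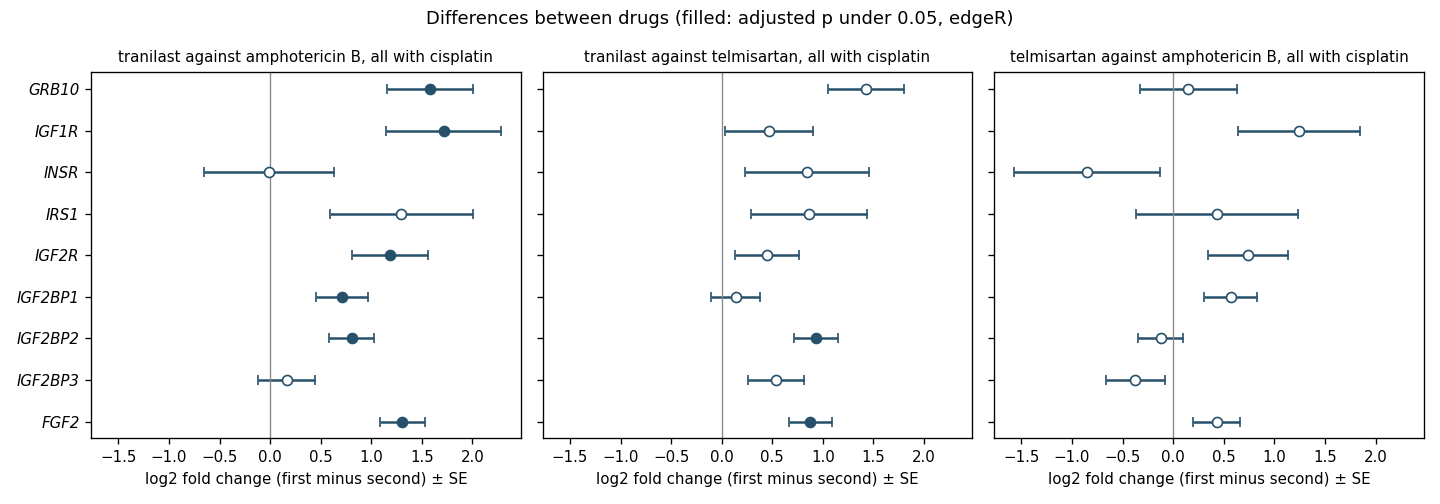
Log2 fold change with its standard error for the 9 genes in the fit, in the 3 comparisons between drugs, each with cisplatin (3 libraries a group). Filled points passed an adjusted p of 0.05 in edgeR: 6 for tranilast against amphotericin B, 2 for tranilast against telmisartan and 0 for telmisartan against amphotericin B. The 6 include GRB10, whose high level after tranilast was known when the genes were chosen.

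Against cisplatin alone, the 6 genes in the fit that were not selected on the cisplatin libraries were tested, and the comparisons share those 3 libraries. After tranilast IGF2BP3 was higher by 1.28 ± 0.29 (adjusted p = 0.00642, edgeR), 1 of 6, where 10.5% of all genes were higher and 11.6% lower. IGF2R was next, at 0.87 ± 0.33 (adjusted p = 0.0674, edgeR). It passed without cisplatin replicate 1, the library with its highest cisplatin value, where it was 1.34 (adjusted p = 0.009, edgeR). In that fit 3 of 6 genes passed, as did 2652 of 11332 over all genes. The count was 2 without cisplatin replicate 3 or without telmisartan replicate 3, where 2871 of 11395 and 3269 of 11328 were called over all genes. After amphotericin B IGF2BP3 was higher by 1.11 ± 0.31 (adjusted p = 0.026, edgeR), again 1 of 6, where 4.21% of all genes were higher and 9.01% lower. That call was lost without amphotericin B replicate 1 or 2 or cisplatin replicate 2 or 3. Over all genes 209 to 960 were called in those fits, compared with 1469 of 11113 with all libraries. MALSU1, on the strand opposite to IGF2BP3, was lower after amphotericin B, at -1.16 ± 0.27 (adjusted p = 0.0115, edgeR). After telmisartan 0 of 6 genes passed in edgeR, as did 0% of all genes in each direction. IGF2BP3 (0.74 ± 0.30) and IRS1 (-1.28 ± 0.58) were at an unadjusted p under 0.05, as were 1150 of all 11113 genes. DESeq2 called 0 of 6, and 30 of 11113 over all genes. Without cisplatin replicate 1 the edgeR count was 1, where 545 of 11332 were called over all genes. Without both libraries that stood apart IGF2BP3 and IGF2R passed, at 1.10 (adjusted p = 0.00294, edgeR) and 1.10 (adjusted p = 0.028, edgeR). In that fit 2801 of 11260 were called over all genes.

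For the genes by which the set was chosen, values against cisplatin alone are given with no test. GRB10 was higher by 2.61 ± 0.44 (log2, SE) after tranilast, 1.03 ± 0.56 after amphotericin B and 1.18 ± 0.50 after telmisartan. IGF2BP2 was higher by 1.64 ± 0.23, 0.83 ± 0.23 and 0.70 ± 0.23 in the same order. FGF2 was higher by 1.17 ± 0.21 after tranilast, while it differed by -0.14 ± 0.24 after amphotericin B and 0.29 ± 0.22 after telmisartan. Their tranilast libraries lay above all cisplatin libraries for each gene, whereas of the other drugs the ranges did so only for IGF2BP2 after telmisartan.

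Gene span is a feature the choice of genes did not use. In GENCODE 29 IGF1R spans 316 kb, GRB10 203 kb, INSR 182 kb, IGF2BP2 181 kb, IGF2BP3 160 kb and IGF2R 144 kb, so 6 of the 10 genes are over 100 kb, and the other 4 are 33.9 to 71.5 kb. Of the 1805 protein-coding genes over 100 kb in the fit, 91.9% had a log2 fold change below 0 in cisplatin against untreated cells, with a median of -1.26, compared with -0.27 for genes of 30 to 100 kb, 0.31 for 10 to 30 kb and 0.61 under 10 kb. Within their class GRB10 and INSR were near the bottom, with 0.997% and 1.05% of genes below them, IGF2R and IGF2BP2 had 6.04% and 12.5% below them, and IGF2BP3 (25.2%) and IGF1R (37.2%) were nearer the middle. FGF2, at 71.5 kb, was far below its own class median, with 1.09% of genes below it, while IGF2BP1 had 35.8% below it. That GRB10, IGF2BP2 and FGF2 fell in this contrast was fixed by the choice, so their low ranks are no independent result. After tranilast and cisplatin the class over 100 kb had a median of -0.45 against untreated cells, compared with -0.84 after telmisartan and -0.83 after amphotericin B. In tranilast against amphotericin B, in which the genes were tested, the class median was 0.26, and 95% of the class lay below GRB10, 96.5% below IGF1R, 88.2% below IGF2R, 75.8% below IGF2BP2, 45.2% below IGF2BP3 and 37.2% below INSR, so the last 2 were under the class median. The class of 30 to 100 kb had a higher median, 0.41, with 89.8% of it below FGF2, 89.6% below IRS1 and 66% below IGF2BP1. The part of gene span in the values of these genes was not tested.

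**Figure D3:**
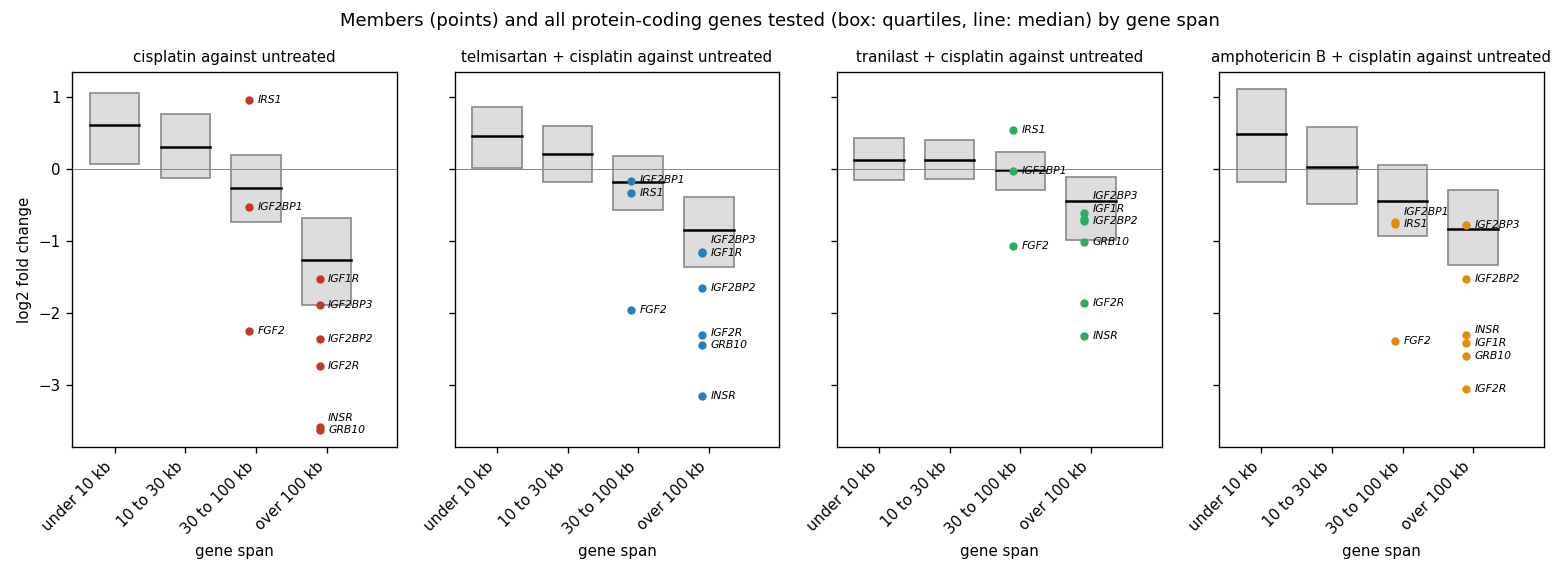
Log2 fold change against untreated cells of the 9 genes (points) and of all protein-coding genes in the fit by gene span (box, quartiles; line, median), 1 panel for each treated group. The class over 100 kb lies lowest in each panel, at a median of -1.26 with cisplatin alone and -0.45 with tranilast and cisplatin, and GRB10, INSR and IGF2R lie below its lower quartile in all 4 panels. GRB10, IGF2BP2 and FGF2 were chosen for their fall with cisplatin.

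The rest of the pathway was read from 8 lists of 155 genes, of which 151 were in the files and 120 passed the filter. In tranilast against amphotericin B, both with cisplatin, 35 of 120 were higher and 14 lower in edgeR, with a median log2 fold change of 0.43 compared with 0.15 for all genes. The shares over all genes were 19.7% higher and 16.4% lower, and the counts of the lists from mTOR to S6 kinase (4 of 18 higher), of FGF receptors (2 of 9) and of mRNAs bound by IGF2BPs (4 of 18) were near them. On the list from PI3K to AKT 8 of 18 were higher and 1 lower, among them the kinase AKT2, at 318 ± 38.0 CPM (SD) after tranilast and 143 ± 13.3 CPM after amphotericin B (1.15 ± 0.20, adjusted p = 0.00109), and the AKT inhibitor TRIB3 (1.82 ± 0.37, adjusted p = 0.00188). Adaptors and receptor regulators were higher for 7 of 20 and lower for 1. On the list of AKT substrates and FOXO targets 6 of 18 were higher and 1 lower, with the mTORC1 inhibitor SESN2 higher by 2.26 ± 0.44 (adjusted p = 0.00162) and the pro-apoptotic BAD at -1.60 ± 0.32 (adjusted p = 0.00183). From mTOR to S6 kinase 4 were higher and 4 lower. Of 13 ligands and binding proteins only 4 passed the filter, of which 2 were lower. Of FGF receptors and co-receptors 2 were higher and 1 lower. Of mRNAs bound by IGF2BPs and the let-7 axis 4 were higher and 3 lower, and of m6A factors 4 of 15 were higher and 1 lower, with the reader YTHDF3 higher by 1.56 ± 0.28 (adjusted p = 0.00112). The split of the 120 genes was 28 higher and 17 lower with RLE factors, and 70 higher and 7 lower with library size alone. Over all 11113 genes the split was 1655 higher and 2105 lower with RLE factors, and 5313 higher and 763 lower with library size alone. The count of 49 pathway genes fell to 28 without amphotericin B replicate 1 or 3. Over all genes 2797 of 11415 and 2700 of 11388 were called in those fits, compared with 4003 of 11113 with all libraries.

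Against cisplatin alone, 19 of 120 pathway genes were higher and 9 lower after tranilast, and 3 were higher and 18 lower after amphotericin B. Over all genes 10.5% were higher and 11.6% lower after tranilast, and 4.21% higher and 9.01% lower after amphotericin B, so the 9 lower and the 3 higher were under the shares of all genes. The count of 28 after tranilast fell to 17 without cisplatin replicate 2 or tranilast replicate 2. Over all genes 1190 of 11398 and 1272 of 11337 were called in those fits, compared with 2462 of 11113 with all libraries. After tranilast the PI3K to AKT list had 6 of 18 higher and 0 lower, among them the AKT phosphatase PHLPP1 (1.93 ± 0.32, adjusted p = 0.00175, edgeR) and TRIB3 (1.63 ± 0.35, adjusted p = 0.00496). GSK3B, a kinase that AKT inhibits, was higher by 1.71 ± 0.30 (adjusted p = 0.00203), and of the mRNAs bound by IGF2BPs BTRC was higher by 2.25 ± 0.37 (adjusted p = 0.00163) and HMGA2 by 1.03 ± 0.23 (adjusted p = 0.0058). After amphotericin B lower genes included CCND1 (cyclin D1) at -1.24 ± 0.20 (adjusted p = 0.00356), the transcription factor KLF6 at -1.10 ± 0.19 (adjusted p = 0.00406) and the syndecan SDC4 at -1.19 ± 0.21 (adjusted p = 0.00408). The m6A readers YTHDF3 and YTHDF1 were at -1.52 ± 0.28 and -1.32 ± 0.26 (adjusted p = 0.00478 and 0.00634). The count of 21 after amphotericin B fell to 2 in a fit of those 6 libraries alone and to 7 to 10 without cisplatin replicate 2 or 3 or amphotericin B replicate 1 or 3. Calls over all genes fell as well, from 1469 of 11113 to 89 of 9199 in the former fit and to between 209 and 728 in the latter. The pathway count was 49 without cisplatin replicate 1, 32 without telmisartan replicate 3 and 57 without both, 26 of them higher. Over all genes 3834 of 11332, 2330 of 11328 and 4882 of 11260 were called in these fits. Between tranilast and telmisartan HMGA1 was the only pathway gene that passed, at -1.07 ± 0.26 (adjusted p = 0.0438, edgeR). Without telmisartan replicate 3 that count was 33, without cisplatin replicate 1 or 3 it was 11 or 3, and it was 0 without any other library. Over all genes 2760 of 11328 were called without telmisartan replicate 3, and 1152 of 11332 or 585 of 11395 without cisplatin replicate 1 or 3. Calls over all genes were 180 of 11398 without cisplatin replicate 2, and 0 to 3 without each of the remaining libraries. Telmisartan had 0 of 120 called in edgeR against amphotericin B and 0 of 120 against cisplatin, as it had 0 over all genes. At an unadjusted p under 0.05 were 20 and 21 of the 120, compared with 2283 and 1150 of all 11113 genes. DESeq2 called 2 and 3 of the 120, and 184 and 30 over all genes. Without cisplatin replicate 1 the edgeR counts of pathway genes were 7 and 15, and the former was 1 without telmisartan replicate 1. Over all genes the calls were then 665 and 545 of 11332, and 17 of 11426.

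**Figure D4:**
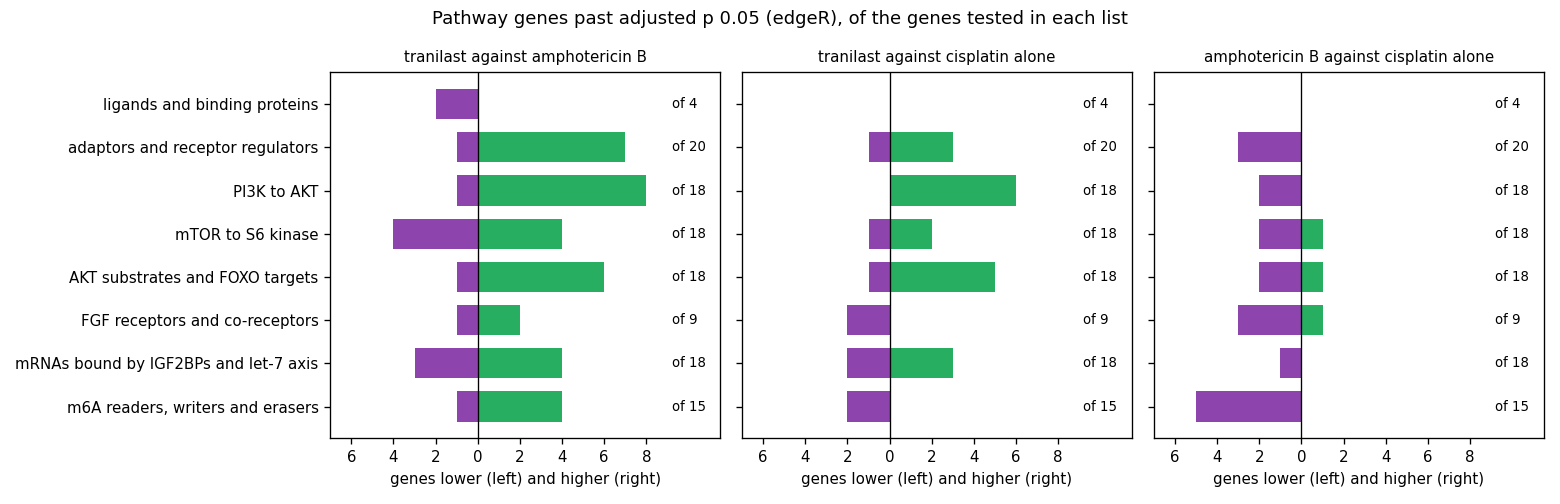
Number of genes of each of 8 pathway lists past an adjusted p of 0.05 in edgeR, lower (left, purple) and higher (right, green), with the number tested at the right of each bar. Of 120 genes 35 were higher and 14 lower after tranilast than after amphotericin B (19.7% and 16.4% of all genes), 19 and 9 after tranilast than with cisplatin alone (10.5% and 11.6%), and 3 and 18 after amphotericin B than with cisplatin alone (4.21% and 9.01%), where the split was 26 and 31 without the libraries that stood apart. Over all 11260 genes of that last fit 2305 were higher and 2577 lower.

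Across the 15 libraries the genes of the set were alike in pattern to different degrees, given as Pearson's r of log2 CPM as a description, since the libraries of a group share their treatment and the choice of GRB10, IGF2BP2 and FGF2 fixed a lower level in cisplatin than in untreated libraries for all 3. IGF2BP2 and IGF2BP3 had an r of 0.93, IGF2BP2 and FGF2 0.91, IGF2R and FGF2 0.91, GRB10 and FGF2 0.90 and GRB10 and IGF2BP2 0.89. IGF2BP1 was less like its paralogues, at 0.53 with IGF2BP2 and 0.39 with IGF2BP3, and IRS1 had an r between -0.32 and 0.25 with every other gene tested. Among 8546 genes whose mean log2 CPM reached 3, those most like GRB10 were PHF20L1, ISL1, ZMYND8, RAB3GAP2 and PPP1R12A (r from 0.956 to 0.951), and those most like IGF2BP2 were BAZ2B, TRIP12, TOX, ANKRD11 and BBX (r from 0.976 to 0.972). Most like FGF2 were SSX2IP, SEC63, TAX1BP1, CLDN1 and CLGN (r from 0.988 to 0.974). ANKRD11, for example, had group means of 685 CPM untreated, 118 with cisplatin, 187 after telmisartan, 383 after tranilast and 161 after amphotericin B.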

How the data were processed

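The authors deposited raw counts per gene for each library of a 3′ mRNA kit (75 bp reads from 100 ng RNA), and the submitters' processing notes name STAR 2.3.0, HTSeq and hg19. The annotation and the strand setting are not given in the sources used here. Counts of all 15 libraries were fitted together in edgeR 4.0.16 (filterByExpr, TMM factors, a term for each group, quasi-likelihood test) in R 4.3.3, with Benjamini-Hochberg adjustment over the 11113 genes that passed the filter. The code was tested on simulated data. Groups followed the labels, and nothing in them ties replicates across groups. Normalized CPM used TMM factors, and log2 CPM a prior count of 2. Gene names and spans came from GENCODE 29 (GRCh38) by gene ID, and no coordinates were carried between builds. Genes named are the 10 genes, their overlapping genes, the 5 pathway genes with the smallest adjusted p in each comparison, the 5 genes most like GRB10, IGF2BP2 and FGF2, and markers. The genes and lists were chosen with earlier results of these data known. Alternatives were the likelihood ratio test, DESeq2 1.42.0, RLE factors, library size only, other filters, fits of 6 libraries, a replicate block and each library left out, and, after seeing the data, both libraries that stood apart left out.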

Additional observations from a re-analysis of the deposited data

Results flagged for a closer look

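The direct comparison of drugs, which tests whether their effects on cisplatin-treated cells differ, passed an adjusted p of 0.05 in edgeR for 8 values of the set. Between tranilast and amphotericin B these were GRB10 (log2 fold change 1.58), IGF1R (1.71), IGF2R (1.19), IGF2BP1 (0.71), IGF2BP2 (0.81) and FGF2 (1.31), each higher after tranilast in 3 of 3 libraries. Over all genes 19.7% were higher in that comparison, and the high level of GRB10 after tranilast was known when the genes were chosen. Between tranilast and telmisartan they were IGF2BP2 (0.93) and FGF2 (0.88), also higher in 3 of 3 libraries. How many of all genes were separated by library in either comparison was not counted. Over all genes 0.585% were higher, and both calls were lost when any of 11 single libraries was left out. In each of those fits 0 to 3 genes were called over all genes. Groups of 3 were too small for a test of single libraries that lie far out. The comparisons share the tranilast libraries.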

How the results depend on the processing

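Of 1067 values of single genes under 24 alternatives, 965 kept their direction and their side of the threshold, 48 lost a call, 24 gained a call and 30 changed sign, of which 0 passed the threshold with the new sign. The causes of these changes were not tested. With 1 library of a group left out, counts of the set ran from 2 to 6 for tranilast against amphotericin B, 0 to 3 for tranilast against telmisartan, 0 to 0 for telmisartan against amphotericin B, 1 to 3 for tranilast against cisplatin, 0 to 1 for amphotericin B against cisplatin and 0 to 1 for telmisartan against cisplatin, and counts of pathway genes ran, in the same order, from 28 to 56, 0 to 33, 0 to 7, 17 to 38, 7 to 49 and 0 to 15. Over all genes calls ran, in that order, from 2700 to 4724, 0 to 2760, 0 to 665, 1094 to 3269, 209 to 3834 and 0 to 545. Other counts of the set that moved were, for tranilast against telmisartan, 5 without the libraries that stood apart (13 libraries), 0 with library size only and 0 with only 6 libraries. For tranilast against cisplatin they were 3 with 13 libraries and 2 with library size only, the likelihood ratio test or no filter. For amphotericin B against cisplatin they were 0 with library size only or 6 libraries, and for telmisartan against cisplatin 2 with 13 libraries. With 13 libraries calls over all 11260 genes were 4118 for tranilast against telmisartan, 4087 for tranilast against cisplatin and 2801 for telmisartan against cisplatin. With all libraries they were 260, 2462 and 0 of 11113. With library size only 1 of 11113 was called for tranilast against telmisartan, 2979 for tranilast against cisplatin and 1092 for amphotericin B against cisplatin. With only 6 libraries 0 of 10455 were called for the first and 89 of 9199 for the last. For tranilast against cisplatin the likelihood ratio test called 3138 of 11113, and the fit with no filter 2583 of 24733. Counts of pathway genes moved to 77 with library size only for tranilast against amphotericin B, and for tranilast against telmisartan to 53 with 13 libraries, 7 with DESeq2, 10 with the likelihood ratio test, 11 with no filter and 0 with library size only or 6 libraries. They moved to 1 with 13 libraries, 2 with DESeq2, 5 with the likelihood ratio test and 9 with no filter for telmisartan against amphotericin B, to 55 with 13 libraries for tranilast against cisplatin, to 57 with 13 libraries, 33 with no filter and 2 with 6 libraries for amphotericin B against cisplatin, and to 45 with 13 libraries and 3 with DESeq2 for telmisartan against cisplatin. Over all genes 6076 were called with library size only for tranilast against amphotericin B. For tranilast against telmisartan DESeq2 called 1020, the likelihood ratio test 1040 and no filter 1008. For telmisartan against amphotericin B 13 libraries gave 130, DESeq2 184, the likelihood ratio test 460 and no filter 856. For amphotericin B against cisplatin 13 libraries gave 4882 and no filter 1938. DESeq2 called 30 for telmisartan against cisplatin.

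The sign of INSR between tranilast and amphotericin B, -0.01 in the report, turned to 0.011 with 13 libraries, 0.0492 with CPM above 1 in 3 libraries, 0.629 with library size only, 0.0046 with the likelihood ratio test, 0.115 with no filter and 0.0102 with the replicate block, and ran from -0.473 to 0.593 with 1 library left out. Other values that changed sign with 1 library left out ran, in tranilast against amphotericin B, from -0.0156 (without amphotericin B replicate 3) to 0.341 for IGF2BP3, and in tranilast against telmisartan from -0.036 (without telmisartan replicate 2) to 0.534 for IGF2BP1. In telmisartan against amphotericin B they ran from -0.849 (without telmisartan replicate 3; -0.181 without amphotericin B replicate 1) to 0.487 for GRB10, from -0.161 (without amphotericin B replicate 1) to 1.19 for IRS1 and from -0.286 to 0.0277 (without amphotericin B replicate 2) for IGF2BP2. Against cisplatin they ran, after amphotericin B, from -0.794 to 0.174 (without cisplatin replicate 1) for IGF2R and from -0.313 to 0.0394 (without cisplatin replicate 3) for IGF2BP1, and after telmisartan from -0.179 (without telmisartan replicate 3) to 0.96 for IGF1R, from -0.261 (without cisplatin replicate 3) to 1.61 for INSR and from -0.0269 (without telmisartan replicate 3) to 0.619 for IGF2BP1. Without both libraries that stood apart the sign changed for GRB10 in telmisartan against amphotericin B (-0.845), for IGF2R in amphotericin B against cisplatin (0.128) and for IGF2BP1 in telmisartan against cisplatin (-0.183). With library size only it changed for IGF2BP2 in telmisartan against amphotericin B (0.205) and for IRS1 in tranilast against cisplatin (0.0252).

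The replicate numbers are shared by all groups, and the labels do not say whether they pair the libraries. Deviations of same-numbered libraries from their group means correlated at 0.02 on average (30 pairs, -0.24 to 0.63). For other pairs the average was -0.01 (60 pairs, -0.585 to 0.481). Such averages cannot exclude pairing between some groups, and the highest value, 0.63, was that of cisplatin replicate 3 with telmisartan replicate 3. With the number as a block, the counts of the set were 6 for tranilast against amphotericin B, 3 for tranilast against telmisartan with GRB10 then at 1.52 (adjusted p = 0.038, edgeR), and 1 for both tranilast and amphotericin B against cisplatin. Over all 11113 genes 443 were called for tranilast against telmisartan with the block, compared with 260 without it. Depth limits IRS1, IRS2 and INSR, which had 0 to 14 counts in the treated libraries. It also limits IGF1R (1 to 5 counts), GRB10 (4 to 10) and IGF2R (6 to 15) in the amphotericin B libraries, and so their calls against tranilast.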
